A study of Mus musculus with 2 samples.

Results

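The 10 microRNA (miRNA) genes Mir770, Mir673, Mir337, Mir540, Mir431, Mir433, Mir127, Mir434, Mir136 and Mir370 lie in the proximal part of the imprinted Dlk1-Dio3 region of mouse chromosome 12. They were taken by name and position from the 2202 miRNA genes of the deposited tables, under a rule that used no count. The list leaves out 12 other annotated miRNA genes of the same stretch and was drawn up with earlier results of these data known. Small RNA of adrenal gland tissue was sequenced from adult male mice, aged 8 to 10 months and obtained from The Jackson Laboratory, in 2 libraries labelled biological replicates 1 and 2. Their strain is given as 5xFAD/CAST. 5xFAD is a transgenic model of Alzheimer's disease driven by the neuronal Thy1 promoter, and CAST is a wild-derived inbred strain. The labels give neither the transgene status of these mice nor the direction of the cross. The libraries have separate tissue records and 1 donor record, so the spread between them may be partly technical. With 1 group there was no contrast between conditions, and every comparison below is between genes or between the 2 libraries.

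In the Dlk1-Dio3 region the protein-coding genes Dlk1, Rtl1 and Dio3 are expressed from the paternal chromosome, and the long noncoding RNAs Meg3, Rian and Mirg with the miRNAs from the maternal chromosome. Dlk1, a transmembrane ligand of the Notch family, is known from chromaffin cells of the adrenal medulla. Rtl1 derives from a retrotransposon and is needed in the placenta. Several of the miRNA genes are transcribed across the Rtl1 coding sequence on the other strand, and their products can direct cleavage of the Rtl1 transcript. The libraries held no mRNA, so neither Rtl1 nor the steroidogenic markers of the adrenal cortex could be examined. Parental alleles were not told apart.

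The genes Mir431, Mir433, Mir127, Mir434 and Mir136 form the Rtl1 antisense group. In the GENCODE M21 annotation of GRCm38 all 5 hairpins lay on the plus strand, wholly inside the coding part of the minus-strand gene Rtl1 (chromosome 12, 109589193 to 109600330). Both mature arms of each are shown because each arm is the exact reverse complement of a stretch of Rtl1 coding sequence. The sequences are from RefSeq (GRCm38.p6), written 5′ to 3′, with the seed (bases 2 to 8, which pair with targets) in capitals.
miR-431-5p: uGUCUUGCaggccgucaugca
miR-431-3p: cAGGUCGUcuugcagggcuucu
miR-433-5p: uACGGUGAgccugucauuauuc
miR-433-3p: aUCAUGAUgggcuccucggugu
miR-127-5p: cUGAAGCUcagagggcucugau
miR-127-3p: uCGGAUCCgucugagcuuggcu
miR-434-5p: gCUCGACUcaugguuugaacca
miR-434-3p: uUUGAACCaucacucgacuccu
miR-136-5p: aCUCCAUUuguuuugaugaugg
miR-136-3p: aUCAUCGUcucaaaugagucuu

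Among 139565 GENCODE transcripts other than miRNAs, an exact complement of each of these 10 arms was found in Rtl1 and in no other gene. Mature miR-127-3p lies at chr12:109592888-109592909 on the plus strand, and its site in the Rtl1 transcript, shown as an example with the complement of the seed in capitals, is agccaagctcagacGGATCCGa. The site occupies positions 2642 to 2663 of the 6358-base transcript, whose coding sequence runs from position 148 to 5379. Read along Rtl1, the sites of Mir136 come first, 0.306% and 0.975% into the coding sequence for the 3p and 5p arms. Those of Mir434 begin 15.6% and 16.3% in, those of Mir127 47.7% and 48.3%, those of Mir433 68.8% and 69.8%, and those of Mir431 93.3% and 94.1%. The arms of the other 5 genes had no exact complement in any of these transcripts. The deposited counts are per hairpin gene, so the share of the 5p and 3p arms in the values below is unknown.

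Levels were expressed as CPM, the sense reads of a gene per 1000000 sense reads of all miRNA genes, out of 6783227 reads in replicate 1 and 3084602 in replicate 2. Reads cover whole mature molecules of 20 to 23 bases, so CPM was not divided by length. In bulk tissue, fewer cells of a type and less RNA per cell cannot be told apart. The 10 genes together held 3.46% (Wilson 95% interval 3.45 to 3.47) of the sense miRNA reads of replicate 1 and 3.004% (2.98 to 3.02) of those of replicate 2, a mean of 3.23% ± 0.322 (SD, n = 2). All 10 reached a mean of 10 CPM, against 12.7% of the annotated miRNA genes. Within the region, 34 of the 45 distal miRNA genes and 6 of the 12 other proximal ones also did. The median of the 10 was 681 CPM, against 203 CPM over the 280 genes at or above 10 CPM. Of the 10, 8 lay above the median of the 280, as did 17 of the 34 distal genes. Mean levels spanned 190-fold, from 128 CPM for Mir136 to 24415 CPM for Mir127.

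Mir127, known for its requirement in the placental labyrinth, led the group with 181443 reads in replicate 1 and 68112 in replicate 2. These counts equal 26749 and 22081 CPM, a mean of 24415 ± 3300 CPM (SD, n = 2). It was the 13th and 14th most abundant miRNA gene of the 2 libraries. It supplied 77.3% and 73.5% of the reads of the 10 genes, and 85.3% and 81.9% of those of the Rtl1 antisense group. Around Mir127 in the order of all genes stood Mirlet7d at 28598 ± 2273 and Mir143, a smooth muscle miRNA, at 26930 ± 2717 CPM above it. Below it stood Mir139 at 21469 ± 9437 and Mir10b at 21218 ± 9307 CPM. None of these 4 neighbours was ordered against Mir127 beyond the spread between the replicates.

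The other antisense genes stood far below Mir127. Mir433 had 19405 and 9267 reads, which is 2861 and 3004 CPM in replicates 1 and 2. Mir431, studied in muscle regeneration, had 6325 and 3469 reads, or 932 and 1125 CPM. Mir434 had 4701 and 1945 reads, or 693 and 631 CPM. Mir136, the gene nearest the start of the Rtl1 coding sequence, had 890 and 388 reads, or 131 and 126 CPM. Mir127 therefore exceeded Mir433 by 9.35-fold and 7.35-fold in replicates 1 and 2, Mir431 by 28.7-fold and 19.6-fold, Mir434 by 38.6-fold and 35.0-fold, and Mir136 by 204-fold and 176-fold. The 5 hairpins span 4.94 kb, between 109590447 and 109595388, and 0.727 to 1.59 kb apart, so adjacent genes of the group stood at very unequal CPM. Both libraries used the same protocol, and any preference of it for some sequences is part of these ratios.

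Between Dlk1 and Rtl1, past the 3′ end of the minus-strand Rtl1, lie 4 of the genes. Mir770 (109563692 to 109563785) overlaps an annotated exon of Meg3, and Mir673 (109571990 to 109572080) lies just past its annotated end. Mir770 had 2020 and 833 reads, or 298 and 270 CPM. Mir673 had 1302 and 690 reads, or 192 and 224 CPM. Mir337 (109585789 to 109585885) and Mir540 (109586080 to 109586146) are 0.194 kb apart, outside other annotated genes of their strand. Mir337 had 13923 and 4925 reads, or 2053 and 1597 CPM, and was the third most abundant of the 10 genes in both libraries. Mir540 had 4248 and 2393 reads, or 626 and 776 CPM. Replicates 1 and 2 put Mir337 at 3.28-fold and 2.06-fold above Mir540. The tenth gene, Mir370 (109618258 to 109618336), known for effects on hepatic lipid metabolism, lies in an intron of Rian, 22.9 kb past Mir136, and had 62.5 and 206 CPM. The antisense group as a whole held 9.71 and 8.78 times the reads of the other 5 genes.

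**Figure D1:**
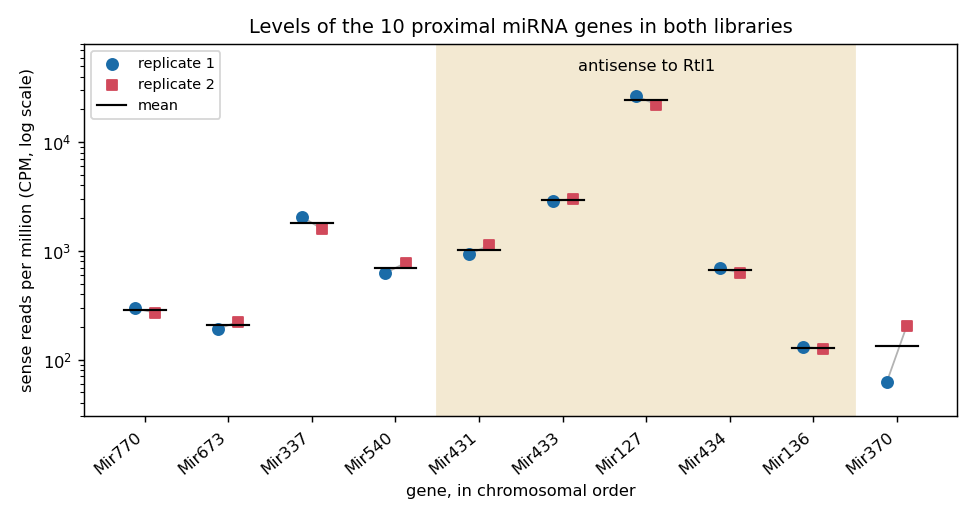
Sense CPM (log scale) of each gene in replicate 1 (circles) and replicate 2 (squares), in chromosomal order, with the mean of both as a bar; the shaded genes are antisense to Rtl1. Mir127 stood at 26749 and 22081 CPM, above the other 9 genes, and Mir370 showed the widest gap, 62.5 against 206 CPM.

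The 2 libraries gave nearly the same order. A pair of genes was called ordered when both libraries ranked it alike and the smaller of its 2 log2 gaps exceeded the larger replicate difference of either gene. Of the 45 pairs, 40 were ordered in this way. By mean CPM the order was Mir127, Mir433, Mir337, Mir431, Mir540, Mir434, Mir770, Mir673, Mir370 and Mir136. Neighbours in this order that did not differ beyond the spread were Mir540 and Mir434, Mir673 and Mir370, and Mir370 and Mir136. Mir540 and Mir434 changed places, at ratios of 0.904 in replicate 1 and 1.23 in replicate 2. Of the 5 pairs left unordered, 4 involved Mir370, and 35 of the 36 pairs without Mir370 were ordered. By the smaller of the ratios in the 2 libraries, the closest ordered neighbours were Mir770 and Mir673, at 1.55 and 1.21, and Mir433 and Mir337, at 1.39 and 1.88. Mir337 and Mir431 followed at 2.20 and 1.42, and Mir431 and Mir540 at 1.49 and 1.45. A stricter rule asked for a gap above the sum of the replicate differences of both genes, and 36 of the 45 pairs were ordered by it. Of the close neighbours just named, only Mir433 and Mir337 passed this stricter rule.

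Mir370 differed between the libraries. It had 424 reads in replicate 1 and 635 in replicate 2, the only 1 of the 10 genes with more reads in the smaller library. Its CPM was 3.29-fold higher in replicate 2, a difference in log2(CPM + 1) of 1.70. The exact counting interval of the log2 CPM ratio ran from 1.54 to 1.90, and Fisher's exact test on reads, adjusted over the 280 genes of at least 10 CPM, gave 3.0e-81. This test compares the reads of 2 libraries and not animals or conditions. A gene was called at an adjusted p under 0.05 with at least a 2-fold difference. Mir370 was the only 1 of the 10 genes called, against 10.7% of the 280 genes in either direction and 6.07% called higher in replicate 2, so the count of called genes was near the background. Of the 50 genes of the region at or above 10 CPM, 3 were called. The others, named after their values were seen, were the distal genes Mir487b, at 343 and 740 CPM, and Mir323, at 49.1 and 105 CPM. Mir370 had the largest difference of the 50. Its nearest neighbours in Rian with reads stood at 776 and 978 CPM for Mir341 and 15.8 and 16.5 CPM for Mir1188, log2 differences of 0.33 and 0.064.

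The other 9 genes differed by 1.04-fold to 1.29-fold. Mir337 (log2 difference −0.36), Mir127 (−0.28), Mir770 (−0.14), Mir434 (−0.14) and Mir136 (−0.060) were lower in replicate 2, and Mir540 (0.31), Mir431 (0.27), Mir673 (0.22) and Mir433 (0.071) were higher. The sign for Mir433 depended on scaling and turned negative under TMM (−0.031) and DESeq2 size factors (−0.066). Both scalings were computed from counts that included genes under 10 CPM, and the DESeq2 factors were 1.41 and 0.707 for replicates 1 and 2. A scaling from the 280 genes alone was not run. The same 9 genes lay within 0.5 in log2, as did 71.1% of the 280 genes. The median difference of the 10 genes was 0.0051, beside 0.012 for the 280. By reads alone, 9 of the 10 genes had an adjusted p under 0.05 in Fisher's exact test, against 69.3% of the 280. Mir136 was the exception, with an adjusted p of 0.58 and a counting interval of −0.24 to 0.11. Under TMM scaling 7 of the 10 genes passed this test, without Mir433 (adjusted p = 0.12), Mir673 (0.11) and Mir136 (0.093). Under DESeq2 size factors 9 passed, without Mir673 (0.28), and in the column for both strands 7 of the 8 genes with at least 10 CPM passed, without Mir433 (0.78).

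**Figure D2:**
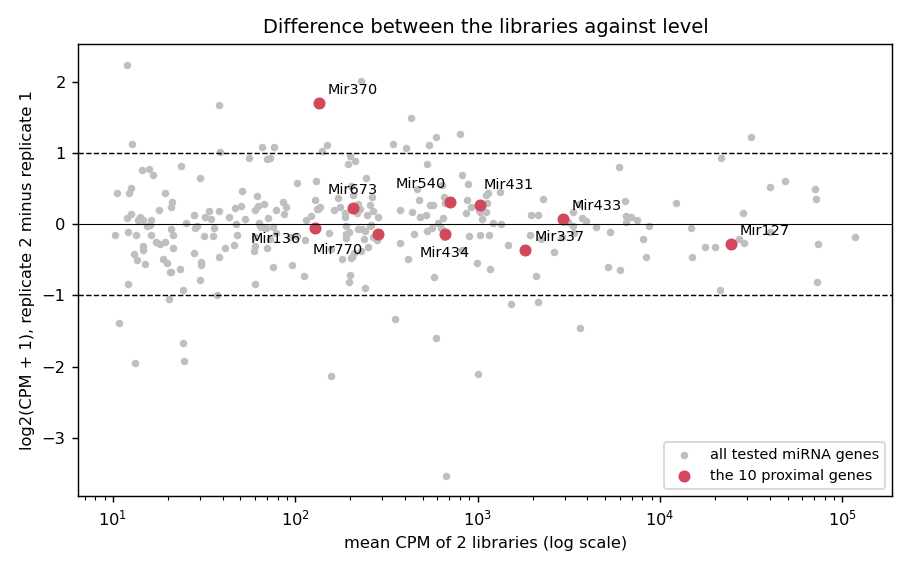
Difference in log2(CPM + 1), replicate 2 minus replicate 1, against mean CPM (log scale) for the 280 genes of at least 10 CPM (grey) and the 10 proximal genes (red); dashed lines mark a 2-fold difference. Mir370 lies at 1.70, and the other 9 genes lie between −0.36 and 0.31.

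Levels of some cell type markers also differed between the libraries. The endothelial Mir126a stood at 92610 CPM in replicate 1 and 52519 in replicate 2, and the neuroendocrine marker Mir375 at 58717 and 82443 CPM, while neuroendocrine Mir7b stood at 4535 and 4423 CPM. The red cell marker Mir451a stood at 5351 and 1949 CPM and the red cell Mir144 at 191 and 187 CPM. The neuroendocrine pair summed to 63253 and 86867 CPM and the red cell pair to 5542 and 2136 CPM, and the liver marker Mir122 stood at 257 and 57.7 CPM. The smooth muscle pair summed to 29493 and 25630 CPM, the 3 leukocyte genes to 571 and 620, the kidney pair to 29.2 and 28.5, the skeletal muscle genes to 3.69 and 3.57, and the exocrine pancreas pair to 0.885 and 0.324. Of the 20 markers, 5 had no reads in either library, namely neuronal Mir124a-1 and Mir9-1, kidney Mir194-1 and skeletal muscle Mir133b and Mir1a-1. All 5 share 20 bases with another hairpin, so a count of 0 sets no limit for them. The part of these cell types in the difference of Mir370 was not tested.

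Along the region, the 10 proximal genes made up 36.4% and 37.5% of the miRNA reads between Dlk1 and Dio3. The 45 distal miRNA genes, from Mir379 to Mir1247, held 5.95% and 4.89% of miRNA reads. The reads of the 10 proximal genes were thus 0.582 and 0.614 of the distal sum, a mean ratio of 0.598 ± 0.0231 (SD, n = 2). Leading distal genes were Mir379 at 19503 and 15645 CPM, Mir411 at 17416 and 12689 CPM and Mir382 at 7312 and 4681 CPM. Hairpins that share 20 bases with another hairpin can lose reads as multimapping. None of the 10 proximal hairpins shares such a stretch, while 7 of the 45 distal hairpins do, Mir411 included. Without these 7 the ratio was 0.880. Leaving them out removes the reads that were counted for them, those of Mir411 included, so 0.880 is not corrected for lost reads. Any reads lost to multimapping would be missing from the distal sum behind the ratio of 0.598. Without Mir127, Mir379 and Mir411, an alternative added after the data were seen, the ratio was 0.367. Among genes of at least 10 CPM, the median was 681 CPM for the 10 proximal genes and 214 CPM for 34 distal genes. The 6 other proximal genes of that level had a median of 17.7 CPM, and all 16 proximal genes together 246 CPM. These differences were not tested.

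The proximal part also held 12 miRNA genes outside the 10. Their sum was 0.0898% and 0.112% of miRNA reads, 0.0260 and 0.0373 of the reads of the 10 genes. Most of it came from Mir341 in Rian, at 877 ± 142 CPM. Mir665, between Mir540 and Rtl1, stood at 67.1 ± 9.19 CPM, Mir493 at 19.3 ± 4.35, Mir1188 at 16.2 ± 0.537, Mir3544 at 14.6 ± 0.433 and Mir3070b at 12.3 ± 2.79 CPM (SD, n = 2). Of the 12, 4 had no reads in either library, which allows up to 0.442 CPM in replicate 1 and 0.973 CPM in replicate 2 for a gene without near-identical copies.

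**Figure D3:**
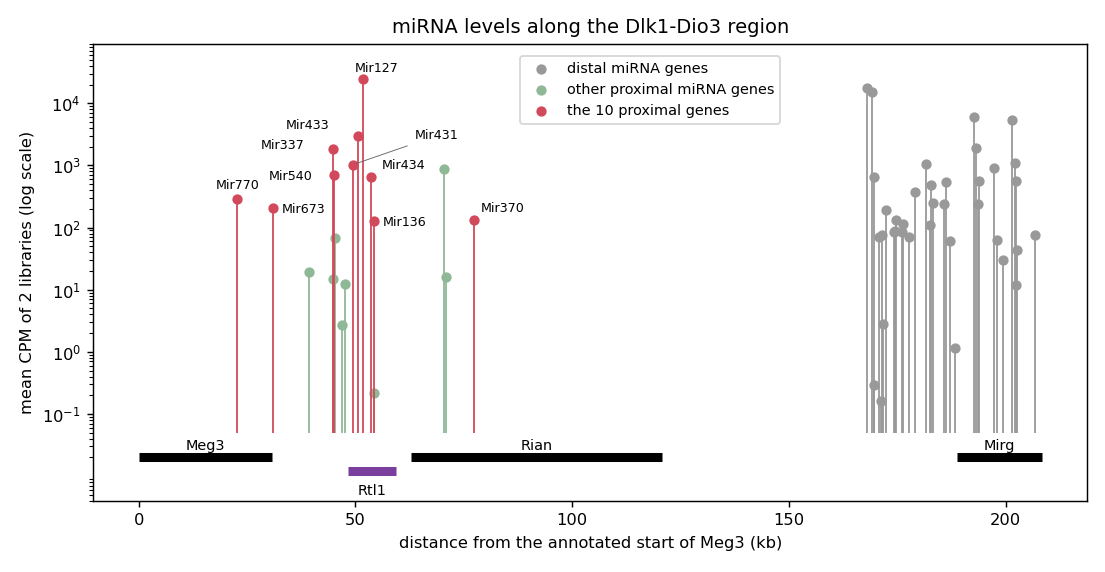
Mean CPM (log scale) of miRNA genes with reads against distance from the annotated start of Meg3 in kb; red points are the 10 proximal genes, green the other proximal genes, grey the distal genes, and bars below mark Meg3, Rian and Mirg (plus strand, black) and Rtl1 (minus strand, purple). Mir127 at 24415 CPM stood above the leading distal gene, Mir379, at 17574 CPM; Mir1247 beside Dio3 is outside the plotted range.

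Of the 10 genes, Mir337 and Mir136 are overlapped by an annotated miRNA gene on the other strand, Mir3544 and Mir3071. From each place 1 of the facing pairs of arms is shown as an example, because the strand decides which gene a read counts for, with the seed in capitals.
miR-337-3p: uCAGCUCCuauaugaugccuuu
miR-3544-5p: aGAAAGGCaucauauaggagcug
miR-136-5p: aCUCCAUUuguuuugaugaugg
miR-3071-3p: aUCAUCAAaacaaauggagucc

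Nearly all reads of both places came from the plus strand. Mir337 had 13923 and 4925 sense reads against 97 and 46 for Mir3544, a plus-strand share of 99.3% (Wilson 95% interval 99.2 to 99.4) in replicate 1 and 99.1% (98.8 to 99.3) in replicate 2. Mir3544 stood at 14.3 and 14.9 CPM. Mir136 had 890 and 388 sense reads against 3 and 0 for Mir3071, a share of 99.7% (99.0 to 99.9) and 100% (99.0 to 100). Mir3071 is thus at the floor of 3 reads, while Mir3544 was above it in both libraries. In the column that joins both strands, reads in these overlaps are ambiguous and left out. There Mir337 had 6 and 4 reads and Mir136 had 0, while the other 8 genes kept the same reads in both columns. Opposite-strand reads of Mir3544 numbered 13923 and 4925, as many as the sense reads of Mir337. All sense reads of Mir337 were thus ambiguous, and its 6 and 4 reads came from the opposite strand. They match the number by which opposite-strand reads of Mir337, 103 and 50, exceeded the sense reads of Mir3544.

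**Figure D4:**
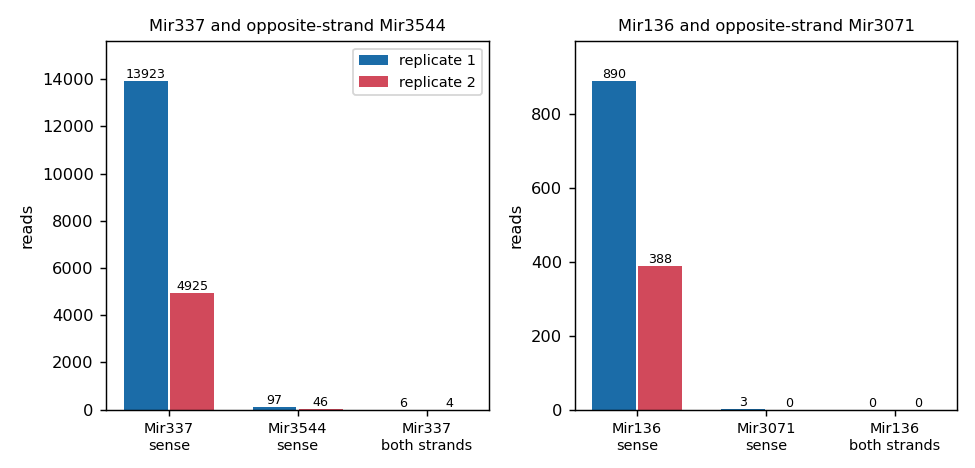
Reads of Mir337 and Mir136 in the sense column, of their opposite-strand partners Mir3544 and Mir3071, and of the same 2 genes in the column joining both strands, for replicate 1 (blue) and replicate 2 (red), on linear axes from 0. Mir337 had 13923 and 4925 sense reads, and with both strands joined 6 and 4 reads, which came from the opposite strand. Mir136 went from 890 and 388 to 0.

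The mature arms carried different seeds. The 20 arms of the 10 genes had 20 different seeds, so no pair of them forms a seed family. In RefSeq, 3 arms shared a seed with a miRNA outside the group. The arm miR-370-5p shared AGGUCAC with miR-1193-3p, from the distal gene Mir1193, which stood at 124 and 144 CPM. These arms are shown because they share a seed between a proximal and a distal gene. Counts are per hairpin, so the level of either arm is unknown.
miR-370-5p: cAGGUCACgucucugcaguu
miR-1193-3p: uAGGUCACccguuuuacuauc

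The arm miR-673-5p shared its seed with miR-6985-3p, and miR-540-3p with miR-6915-5p, from genes at 1.65 and 0.870 CPM on average. Hairpins ranged in length from 62 bases for Mir136 to 124 for Mir433, and in GC content from 40.3% for Mir136 to 70.2% for Mir770. The folding energy computed with RNAfold ran from −28.2 kcal/mol for Mir136 to −58.2 for Mir770, and per base from −0.361 for Mir433 to −0.619 for Mir770. Mir127, the most abundant, lay between these ends with 70 bases, 57.1% GC and −35.1 kcal/mol. Mir136, the least abundant by mean, had the shortest hairpin, the lowest GC content and the smallest total folding energy of the 10, while per base Mir433 (−0.361) and Mir434 (−0.398) were weaker than Mir136 (−0.455).

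The tables held 13209343 and 6482170 reads, of which 51.4% and 47.6% were sense reads of miRNA genes. Multimapping reads, 30.3% and 32.1%, were assigned to no gene. Intervals and floors cover counting error only, since the reads carry no molecular identifiers.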

How the data were processed

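Small RNA below 30 nucleotides from adrenal gland was sequenced in 2 libraries of 1 group, grouped by the strain and tissue label. The authors deposited read counts per miRNA gene for both strands together, the sense strand and the opposite strand. Genes were annotated with GENCODE M21 on mm10, per the deposited notes, with 1 library to a table. The aligner is not given in the sources used here, and the strand columns were identified from the layout of STAR gene counts and from their totals. Multimapping reads were left out by the authors' counting, and CAST variants could lower a count.

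All 2202 gene IDs matched GENCODE M21. Sense counts were scaled to CPM, without the mapping lines. Replicate differences used log2(CPM + 1) and a two-sided Fisher's exact test (scipy 1.17.1) with Benjamini-Hochberg adjustment over the 280 genes of at least 10 CPM. The edgeR quasi-likelihood test needs 2 replicated groups. Alternatives were TMM (edgeR 4.0.16), DESeq2 1.42.0 size factors, the column for both strands, all reads as the total, other pseudocounts and limits, and each replicate alone. Hairpins were folded with ViennaRNA 2.7.2. RefSeq supplied mature sequences for all 10 genes, whose hairpins equalled those of GENCODE. The read test was checked on simulated data with counting error only. It called 137 of 138 genes with an expected log2 difference of at least 1.2 and 0 of 80 genes under 0.8. Spread between libraries beyond counting error was not simulated, so the check does not cover it.

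The text names all 10 genes, proximal miRNA genes of at least 10 CPM or opposite a member, the 3 leading distal genes, 4 neighbours of Mir127, seed mates of at least 10 CPM and a fixed list of cell type markers. Outside this rule, Mir487b, Mir323, Mir1247 and the seed mates of Mir673 and Mir540 were named after their values were seen. Genes and lists were chosen with earlier results of these data known.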

Additional observations from a re-analysis of the deposited data

Results flagged for a closer look

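Reads on the strand opposite Mir337 numbered 103 in replicate 1 and 50 in replicate 2, above the limit of 3 reads that a count of 0 allows. They lie outside the sense counts of the 10 genes, and no control sample was available for comparison. Of these, 97 and 46 were counted as sense reads of Mir3544.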

How the results depend on the processing

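Scaled to all reads of the library, the 10 genes held 1.60% in place of 3.23%. Leaving out a replicate gave 3.004% to 3.46% for this share and 0.582 to 0.614 for the ratio of the 10 genes to the distal genes. That ratio was 0.880 without genes that share 20 bases and 0.367 without Mir127, Mir379 and Mir411. TMM and DESeq2 size factors, computed with genes under 10 CPM included, moved the median log2 difference of all 280 genes by −0.10 and −0.14. The median of the 10 genes turned to −0.096 and −0.13, and Mir433 to −0.031 and −0.066. Relative to all genes, the median of the 10 stayed at −0.0072 and −0.0074 under these 2 scalings, beside −0.0068 as reported. It was 0.144 with both strands joined, where 8 of the 10 genes were tested. Against genes of at least 100 CPM it was −0.054, and against all genes with a read 0.0048. Calls among all genes were 29 (12 higher, 17 lower in replicate 2) and 25 (8 and 17), in place of 30 (17 and 13). With a limit of 0.5 in log2, 79 of 280 genes were called, and with all 703 genes with a read tested, 50. Mir370 was the only 1 of the 10 genes called in each of these settings, among genes of at least 100 CPM, and with both strands joined. With both strands joined, 8 of the 10 genes reached 10 CPM, because Mir337 stood at 1.22 CPM and Mir136 at 0. With 2 libraries of 1 group, no paired analysis was possible, and the spread rests on 2 values per gene.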
